A study of Drosophila melanogaster with 9 samples.

Results

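*prt* and the other vesicular transporter genes of *Drosophila melanogaster* were followed across 9 testis arrays of a *tbrd-2* knockdown series. The genes were *prt*, *Vmat*, *VAChT*, *VGlut* and *VGAT*, and their members on the array were the probe sets to which the platform annotation gives that one symbol or an older name of it. They numbered 9 probe sets of 5 genes, among 13647 probe sets with a single symbol for 11953 genes. *prt* and *VAChT* had 1 probe set each, *Vmat* had 4, *VGlut* had 2 and *VGAT* had 1. *prt* was selected on its rise in the knockdown arrays over the controls, so its knockdown differences are given as a description with no test. The other 4 genes were taken because they belong to the same functional class.

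Vesicular transporters sit in the membrane of secretory vesicles and exchange protons, which a vacuolar ATPase pumps into the vesicle, for a transmitter or another small molecule. Vmat loads monoamines, VAChT acetylcholine, VGlut glutamate and VGAT GABA, and each is used as a marker of the nerve cells that release its substrate. The protein of *prt* (*portabella*) resembles Vmat and VAChT in sequence, is known from the mushroom bodies of the fly brain, and has no settled substrate. The testis is not the tissue in which these genes are usually studied.

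The 9 arrays were Affymetrix Drosophila Genome 2.0 arrays, 3 for each of 3 genotypes, and their values are robust multi-array average (RMA) signals on a log2 scale. In bam≫tbrd-2 RNAi testes, the *bam*-Gal4 driver, present in 2 copies (one X-linked, the other on chromosome 3), acted on 1 copy of a *tbrd-2* hairpin on chromosome 3. The *bam*-Gal4 control held the 2 driver copies without a hairpin, and the undriven control held 1 copy of the hairpin without the driver. *bam*-Gal4 is active in the germline, in spermatogonia and early spermatocytes, and *tbrd-2* encodes a bromodomain protein of spermatocytes. Males of 0 to 2 days from cultures at 30 °C were used, and each array held its own RNA pool from whole testes, of 30 animals per the labels, while the study's methods give a smaller number. Both controls carried a chromosome 3 homologue marked with *Sb*, which the knockdown flies did not. The knockdown and this chromosome therefore cannot be told apart for any gene, and the genes of chromosome 3 are themselves carried on it. *prt* and *VAChT* are among these, on arm 3R. Of the genes named below, so are, for example, *e*, *Octbeta2R*, *5-HT2A*, *Ace*, *VhaPPA1-2*, *mia* and *CCHa1* on 3R. On 3L these include *Gad1*, *Snap25* and *nSyb*. In whole testes, a difference in the number of cells of a type and a difference in RNA per cell cannot be told apart either.

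The *tbrd-2* probe set gave 7.82 to 8.06 in the knockdown arrays, 10.52 to 10.73 in *bam*-Gal4 and 10.19 to 10.39 in undriven arrays, so that no library went against its label. Array medians were 5.86 to 5.96, and arrays of 1 genotype correlated with r between 0.988 and 0.997. The 20 testis marker genes fixed for the tissue check averaged 11.1 to 11.3 on each of the 9 arrays, and 1 of them, *mia*, was called higher in the knockdown. Of all 18952 probe sets, 38.2% averaged under 5 over the 9 arrays. The files hold no detection calls, and whether a low value lay above background was not tested.

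The level of *prt* was high in all 3 knockdown arrays and low in all 6 control arrays. It was 8.98, 9.23 and 8.82 in bam≫tbrd-2 RNAi testes, 5.34, 5.40 and 5.30 in *bam*-Gal4 testes, and 5.49, 5.66 and 4.99 in undriven testes. The lowest knockdown array therefore lay above the highest control array by more than 3 units of log2, and the 2 control genotypes overlapped. Group means were 9.01 ± 0.21, 5.35 ± 0.05 and 5.38 ± 0.35 (SD, n = 3). The difference was 3.66 against *bam*-Gal4 and 3.63 against undriven testes, each with a standard error of 0.16, or 12.7-fold and 12.4-fold. Ranked by the smaller of its differences from the 2 controls, *prt* came second of all 18952 probe sets, after the neuropeptide gene *CCHa1* at 3.82 and before *CG17568* at 2.02 and *CG15236* at 1.87. Since these are the values that led to its selection, no test is attached to them.

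The selection did not use the comparison of the 2 control genotypes, which was tested with limma over all probe sets. The control values did enter the selection, through the differences from each control, so for *prt* the comparison is not independent of the selection. *prt* differed by −0.03 between *bam*-Gal4 and undriven testes, with a 95% confidence interval from −0.40 to 0.33 and an adjusted p of 0.969. That interval describes the difference between driver and hairpin alone in this signal, for a gene selected with the use of these control values. The undriven arrays spread most, from 4.99 to 5.66, and this range was still far below the lowest knockdown value.

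**Figure D1:**
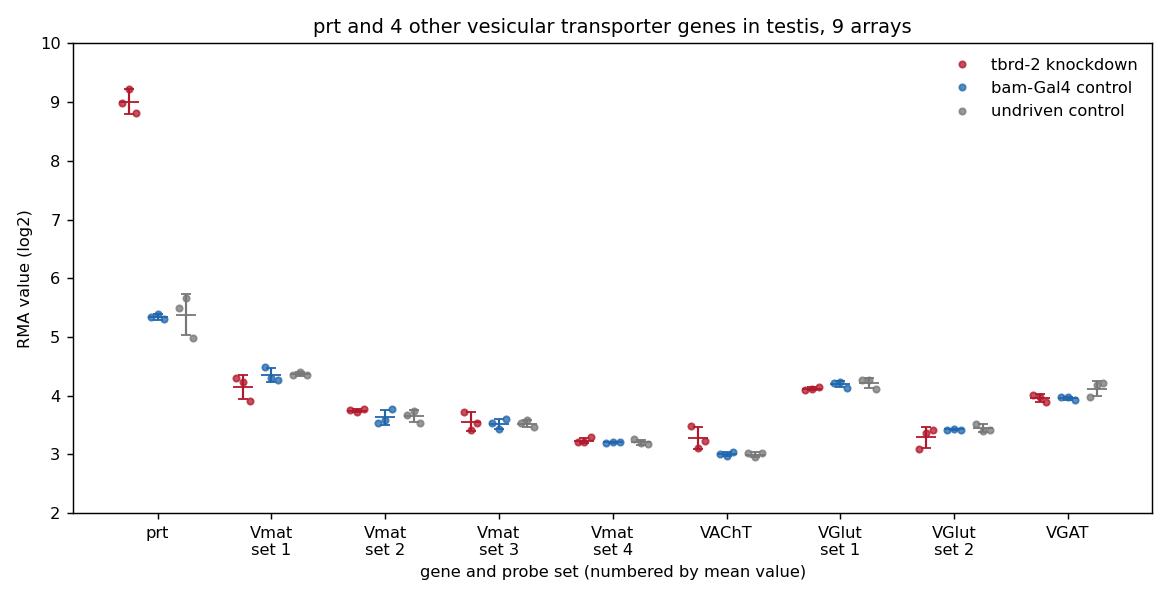
RMA log2 signal of each of the 9 probe sets of *prt*, *Vmat*, *VAChT*, *VGlut* and *VGAT*, with 1 point for each array and a bar at the mean of the 3 arrays of each genotype. *prt* lies between 8.82 and 9.23 in the knockdown arrays and between 4.99 and 5.66 in the controls, while the relatives stay between 2.95 and 4.49 in every array.

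None of the relatives of *prt* passed the test against either control. Each of their 8 probe sets gave values between 2.95 and 4.49 on all 9 arrays. A probe set was called when its adjusted p, after the method of Benjamini and Hochberg over all 18952 probe sets, was under 0.05 and its log2 difference was at least 1 in size. No relative was called against *bam*-Gal4, where 1.29% of all probe sets were called, or against undriven testes, where 1.26% were. No relative had an adjusted p under 0.05 at any size, against 18.6% and 19.1% of all probe sets in these comparisons. At an unadjusted p under 0.05, 1 of the 8 passed against each control, and it was *VAChT* in both. Their differences ran from −0.21 to 0.27 against *bam*-Gal4 and from −0.22 to 0.28 against undriven testes. The medians were 0.02 and −0.03, beside −0.02 and −0.03 over all probe sets. The 95% confidence intervals of the 8 differences together reached from −0.45 to 0.47 and from −0.46 to 0.48, so that none of them held a log2 difference of 1. Those intervals are for each probe set alone and are not adjusted for their number. For probe sets this dim they limit the difference of the RMA signal, and a change in RNA that stays under the background would not show in it.

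*VAChT*, the loader of acetylcholine, was the relative whose knockdown arrays stood apart from the controls. Its values were 3.48, 3.11 and 3.23 in knockdown testes, 3.00, 2.98 and 3.04 in *bam*-Gal4 testes and 3.02, 2.95 and 3.02 in undriven testes. All 3 knockdown arrays lay above all 6 control arrays and the first knockdown array was the highest. Such a separation, in either direction, was found for 23.7% of all probe sets. The difference was 0.27 against *bam*-Gal4 (standard error 0.09, 95% confidence interval 0.06 to 0.47, limma adjusted p = 0.0706) and 0.28 against undriven testes (0.07 to 0.48, limma adjusted p = 0.0613). The adjusted p missed the threshold, and the side of the threshold depended on the fit. Over the alternatives the adjusted p ran from 0.0297 to 0.249 against *bam*-Gal4 and from 0.0264 to 0.182 against undriven testes. Without the second knockdown array it was 0.0297 and 0.0266, with an intensity trend and robust moderation 0.0319 and 0.0264, and with array weights 0.0336 against *bam*-Gal4 alone. The difference was at most 0.36 under any of them, and *VAChT* was never called.

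*Vmat*, the loader of dopamine, serotonin, octopamine and other monoamines, was read by 4 probe sets, which gave differences of both signs. The probe set with the largest difference gave 4.30, 4.23 and 3.91 in knockdown testes, 4.49, 4.31 and 4.27 in *bam*-Gal4 testes and 4.36, 4.40 and 4.35 in undriven testes. Its lowest knockdown array, at 3.91, was the lowest of the 9, and the groups overlapped. The difference was −0.21 against *bam*-Gal4 and −0.22 against undriven testes (limma adjusted p = 0.208 and 0.176). The second *Vmat* probe set had 3.75, 3.72 and 3.77 in knockdown, 3.54, 3.58 and 3.77 in *bam*-Gal4 and 3.68, 3.74 and 3.54 in undriven testes, with differences of 0.12 and 0.09. Its ID ends in the suffix that Affymetrix gives to sets whose probes can match more than 1 transcript. The remaining 2 probe sets gave 3.42 to 3.73 and 3.18 to 3.29 over all arrays, with differences of 0.03 against each control. The *Vmat* probe sets thus neither moved together nor changed past the test.

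*VGlut*, the loader of glutamate at the fly's neuromuscular junction, was read by 2 probe sets, both with small negative differences. The first gave 4.09, 4.12 and 4.15 in knockdown, 4.22, 4.23 and 4.14 in *bam*-Gal4 and 4.27, 4.26 and 4.11 in undriven testes, with differences of −0.08 and −0.09. The second gave 3.09, 3.36 and 3.42 in knockdown, 3.42, 3.44 and 3.42 in *bam*-Gal4 and 3.52, 3.40 and 3.42 in undriven testes, with differences of −0.14 and −0.16. In the second set 1 knockdown array, at 3.09, was the lowest of the 9, a second at 3.36 also lay below all controls, and only the array at 3.42 overlapped them. Neither passed the test.

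*VGAT*, which loads GABA, had 1 probe set. It gave 4.02, 3.98 and 3.89 in knockdown, 3.97, 3.97 and 3.93 in *bam*-Gal4 and 3.97, 4.18 and 4.21 in undriven testes. The knockdown arrays overlapped both controls, and 2 undriven arrays were the highest. The difference was 0.01 against *bam*-Gal4 (limma adjusted p = 0.962) and −0.16 against undriven testes (limma adjusted p = 0.190). The 2 controls differed by −0.16 as well (limma adjusted p = 0.473). Between the control genotypes no member was called, where 0.38% of all probe sets were, and no member had an adjusted p under 0.05, where 2.08% had. No member had an unadjusted p under 0.05 there.

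**Figure D2:**
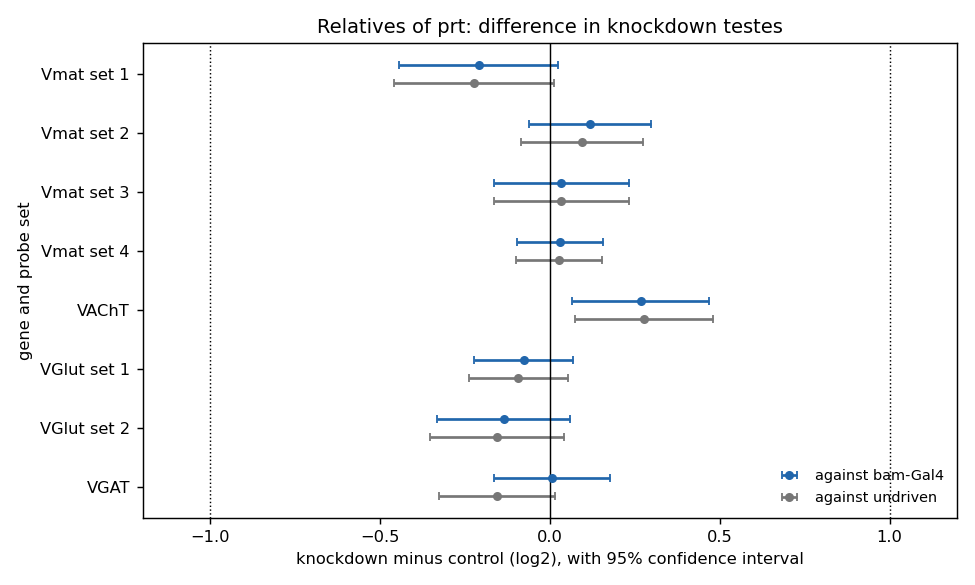
Log2 difference of each relative's probe set between knockdown testes and each control, with bars for the 95% confidence interval from limma (n = 3 arrays a genotype) and dotted lines at the fold limit of 1. The intervals of *VAChT* alone exclude 0 against both controls, and all intervals lie between −0.46 and 0.48.

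Genes that act with vesicular transporters were taken as 8 lists: the synthesis and turnover of monoamines, monoamine receptors, acetylcholine handling, glutamate and GABA handling, the synaptic vesicle and release machinery, the vacuolar ATPase, and the SLC17-type and SLC36-type transporters related in sequence to VGlut and VGAT. Of 136 listed genes, 120 were measured by a probe set with that single symbol, and a gene with several was represented by the brightest. Called higher against both controls was 1 gene and called lower was 1, together 1.67% of those measured, where 0.454% of all probe sets were called higher and 0.354% lower against both. The median difference of the 120 genes was −0.01 against *bam*-Gal4 and 0.00 against undriven testes. The medians of single lists ran from −0.20 and −0.11 for the SLC36-type transporters to 0.17 and 0.15 for acetylcholine handling. All 3 genes of that list had positive differences, but those of *ChAT* were only 0.01 against each control. The vacuolar ATPase list had medians of 0.09 and 0.11.

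The gene called lower was *e* (*ebony*), which joins dopamine and other amines to beta-alanine. It gave 5.61, 5.56 and 5.58 in knockdown testes, 7.14, 6.65 and 6.90 in *bam*-Gal4 testes and 6.65, 6.83 and 6.92 in undriven testes. All knockdown arrays lay more than 1 unit below all control arrays. The difference was −1.31 and −1.22 (limma adjusted p = 1.33e-04 and 1.93e-04). *e* lies on arm 3R, and the *Sb*-marked chromosome of the controls cannot be told apart from the knockdown here. Among the other 10 measured genes of monoamine synthesis and turnover, *Tbh*, the last enzyme of octopamine synthesis, fell by 0.48 and 0.60 (limma adjusted p = 0.0172 and 0.00629), and *Pu*, which makes the first step to a cofactor of amine synthesis, rose by 0.43 and 0.32 (limma adjusted p = 0.0102 and 0.0392). These 2 genes passed the adjusted p but not the fold limit. Both were singled out after their values were seen, and no gene of the list was called higher.

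No monoamine receptor was called among 15 measured of 17 listed. The octopamine receptor gene *Octbeta2R* fell by 0.56 and 0.59 (limma adjusted p = 0.0220 and 0.0178), and the serotonin receptor gene *5-HT2A* differed by −0.31 and −0.25. Of the 3 genes that handle acetylcholine none was called. *Ace*, which encodes the esterase that breaks acetylcholine down, differed by 0.62 and 0.42 (limma adjusted p = 0.00985 and 0.0515), and *ChT*, a choline transporter gene, differed by 0.17 and 0.15. Of the 7 measured genes of glutamate and GABA handling none was called. *Gad1*, which encodes the enzyme that makes GABA, differed by 0.41 and 0.18, and *Gat*, the plasma membrane GABA transporter gene, by 0.37 and 0.10. The probe sets of *ChT*, *Gad1* and *Gat* have IDs with the same suffix as the second *Vmat* set.

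Of 22 measured genes of the synaptic vesicle and release list, out of 30, none was called against both controls. *brp*, a scaffold gene of the presynaptic active zone, gave 5.73, 5.81 and 5.94 in knockdown, 7.12, 6.69 and 6.75 in *bam*-Gal4 and 6.57, 6.80 and 6.87 in undriven testes. It fell by 1.03 and 0.92 (limma adjusted p = 5.71e-04 and 0.00104), past the fold limit against *bam*-Gal4 alone. Against *bam*-Gal4 the size was −0.89 without the first *bam*-Gal4 array, −0.98 without the first knockdown array and −0.96 with array weights, short of the limit, and without the first undriven array *brp* differed from undriven testes by −1.01 and was called against both controls. The 3 dimmer probe sets of *brp* differed from *bam*-Gal4 by −0.35 to 0.08 with no adjusted p under 0.05. *Snap25*, a membrane fusion gene, gave 4.04, 4.19 and 3.91 in knockdown, 3.27, 3.45 and 3.38 in *bam*-Gal4 and 3.23, 3.18 and 3.11 in undriven testes. It rose by 0.68 and 0.87 (limma adjusted p = 6.23e-04 and 1.88e-04), short of the fold limit. With an adjusted p under 0.05 at any size, 4 genes of the list were higher and 1 lower against *bam*-Gal4, and 6 were higher and 1 lower against undriven testes, beside 18.6% and 19.1% of all probe sets. The lower gene was *brp* in both.

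Vesicular transporters draw on a proton gradient, which for prt rests on its resemblance to Vmat and VAChT. The vacuolar ATPase makes this gradient. Of its 34 listed subunit and accessory genes 32 were measured, and none was called. *Vha36-2* fell by 0.79 and 0.75 (limma adjusted p = 6.73e-05 and 9.03e-05), and *VhaPPA1-2* rose by 0.61 and 0.66 (limma adjusted p = 0.00127 and 8.31e-04). With an adjusted p under 0.05 at any size, 3 of its genes were higher and 5 lower against *bam*-Gal4, and 4 were higher and 6 lower against undriven testes, so 8 and 10 of 32, beside 18.6% and 19.1% of all probe sets.

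Among relatives by sequence, none of the 20 SLC17-type genes beside *VGlut* was called, and the widest difference was that of *CG9825*, which fell by 0.87 and 0.91 (limma adjusted p = 0.00185 and 0.00149). It was followed by *CG9864* with −0.60 and −0.62 (limma adjusted p = 0.0897 and 0.0806). Of the 10 SLC36-type genes related to *VGAT*, *CG4991* was called higher, by a probe set whose ID has the same suffix as the second *Vmat* set. It gave 7.49, 7.58 and 7.88 in knockdown, 6.20, 7.0 and 6.55 in *bam*-Gal4 and 6.34, 6.61 and 6.23 in undriven testes. All 3 knockdown arrays lay above all 6 control arrays, while the controls overlapped, and the difference was 1.07 and 1.26 (limma adjusted p = 0.00472 and 0.00203). Against *bam*-Gal4 its size was close to the limit: it was 0.88 without the first *bam*-Gal4 array, 0.95 without the third knockdown array and 0.98 after a renewed quantile normalization, and then *CG4991* was not called.

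**Figure D3:**
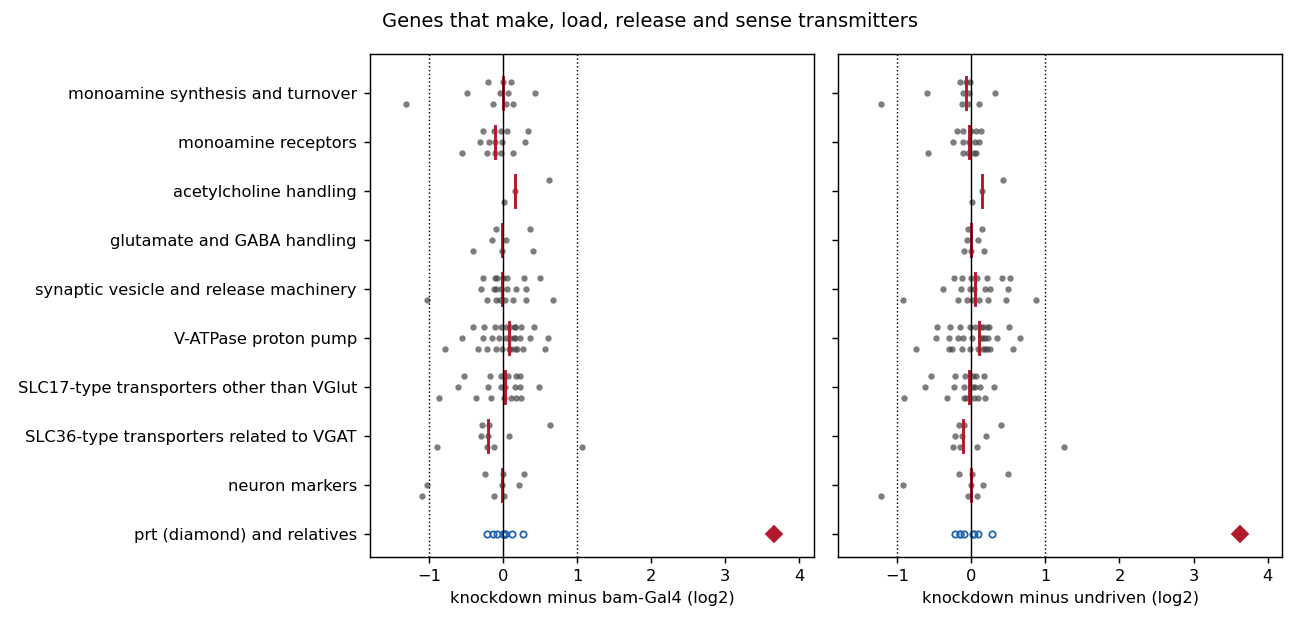
Log2 difference between knockdown testes and *bam*-Gal4 (left) or undriven testes (right) for every measured gene of the 8 lists and of the neuron markers, 1 point for each gene, with a red bar at the median of each list, dotted lines at the fold limit of 1, and *prt* (diamond) and its relatives (open circles) in the lowest row. Of the 8 lists, *e* lies below −1 and *CG4991* above 1 against both controls, and the medians lie between −0.20 and 0.17.

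Lists of markers for other tissues that a testis preparation can hold were read beside these values. Of 10 neuron markers 9 were measured; their mean level was 4.93 to 5.01 in the knockdown arrays, 5.11 to 5.26 in *bam*-Gal4 and 5.12 to 5.21 in undriven arrays. The log2 of their summed signal was 8.72 to 8.9, 9.21 to 9.35 and 9.22 to 9.36. None was called higher, and 1, *Rbp9*, which encodes an RNA-binding protein made in neurons and in the germline, fell by 1.09 and 1.21 (limma adjusted p = 1.99e-04 and 1.13e-04). Without the second knockdown array the *Rbp9* difference from *bam*-Gal4 was −0.98, short of the fold limit, and its dimmer probe set differed by −0.42 and −0.20. The ID of its brighter probe set ends in the suffix for sets whose probes can match more than 1 transcript. The lower mean of the neuron list came with *brp* and *Rbp9*, which both belong to it. The other 7 markers averaged 4.55 to 4.59 in knockdown, 4.48 to 4.59 in *bam*-Gal4 and 4.46 to 4.55 in undriven arrays, a subset taken after the values were seen, with mean differences of 0.02 and 0.08. Among them *nSyb*, a synaptic vesicle protein gene, differed by 0.28 and 0.50 (limma adjusted p = 0.109 and 0.0112), and *elav*, the most general marker, differed by −0.01 and 0.08. The gut and enteroendocrine list, 15 measured of 19, had a mean level of 5.44, 5.61 and 6.72 in the 3 knockdown arrays. It was 5.27 to 5.38 in *bam*-Gal4 and 5.56, 5.33 and 6.19 in undriven arrays. The log2 of the summed signal was 10.32 to 12.10, 9.78 to 9.83 and 9.79 to 11.09. The gene of the list called higher was *CCHa1*, whose peptide is made in the brain and the gut. *CCHa1* gave 8.92, 9.05 and 8.81 in the knockdown arrays and 4.48 to 5.58 in the controls, which enters the list mean. In the third knockdown array *alphaTry* was at 10.17 and *Jon65Aiv* at 10.70, beside 5.30 to 5.78 in the other knockdown arrays. In the third undriven array they were at 8.33 and 8.93. The accessory gland and ejaculatory duct list averaged 10.01 to 11.71 in the knockdown arrays, 8.22 to 11.9 in *bam*-Gal4 and 9.26 to 10.5 in undriven arrays, and none of its 14 measured genes was called. No glia or muscle marker was called among 4 and 7 measured. Beyond these values, the part of other tissue in the level of *prt* was not tested.

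The genes whose levels followed *prt* most closely across the 9 arrays were named by Pearson's r between their values and those of *prt*, over 11941 genes. Such an r mostly reflects the gap between knockdown and control arrays, and the arrays share genotype, so no p is given. The highest were *CG5196* with r = 0.995, *Rab9Fb* and *CCHa1* with 0.993, *CG14109* with 0.992, *CG12684*, *Delta* and *ZIPIC* with 0.991, and *CG10140* with 0.990. In all, 318 genes had an r over 0.95. The sizes of these differences ranged widely: *CCHa1* differed by 4.33 and 3.82 from the controls, *Delta*, which encodes a ligand of Notch, by 1.44 and 1.36, *CG10140* by 1.41 and 1.42, and *Rab9Fb*, a Rab-type GTPase gene, by 0.59 and 0.57. Among the relatives r ran from −0.63 for the first *Vmat* probe set to 0.78 for *VAChT*.

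None of the genes next to *prt* on arm 3R was called with it. The 5 nearest measured genes on each side, in the gene order of the RefSeq annotation of assembly Release 6 plus ISO1 MT, included none that was called against both controls, as few probe sets were (0.454% higher and 0.354% lower). Their differences ran from −0.15 to 0.91 against *bam*-Gal4, with a median of 0.07, and from −0.45 to 0.55 against undriven testes, with a median of −0.03. The nearest gene before *prt*, *CG10252*, had means of 13.83, 13.98 and 14.04 in knockdown, *bam*-Gal4 and undriven testes, and the nearest after it, *CG31468*, had 13.76, 13.70 and 13.74. The largest difference belonged to *CG10232*, the fifth gene after *prt*, with means of 5.28, 4.37 and 4.73 and differences of 0.91 and 0.55 (limma adjusted p = 0.00222 and 0.0265). Against *bam*-Gal4, 2 of the 10 flanking genes had an adjusted p under 0.05, and against undriven testes 3 had, which is close to the 18.6% and 19.1% of all probe sets.

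**Figure D4:**
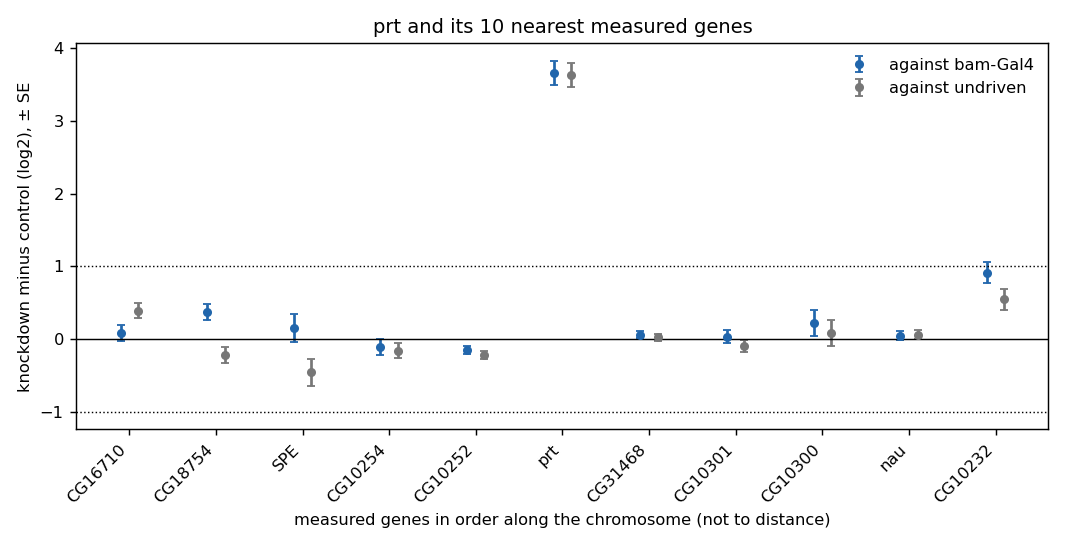
Log2 difference of *prt* and of its 5 nearest measured genes on each side, in gene order along arm 3R, between knockdown testes and each control, with bars for the standard error from limma and dotted lines at the fold limit of 1. *prt* lies at 3.66 and 3.63, and the 10 flanking genes lie between −0.45 and 0.91.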

How the data were processed

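Whole testes of 3 genotypes were measured on 9 arrays, 3 a genotype. The deposited values are log2 expression values that the authors computed with RMA (affy), a background correction, quantile normalization and summary over probes that compresses differences of dim probe sets. Versions are not given. The study also ran RMA jointly with another data set for one comparison, and which run gave the deposited values is unclear. Probe sets were named through the platform annotation: 13647 had 1 symbol, 402 had several and 4903 had none. The values were used as deposited. A mean for each genotype was fitted to all 18952 probe sets and 9 arrays with lmFit and eBayes (limma 3.58.1, R 4.3.3), with p-values adjusted over all probe sets. This step was tested on simulated data. Tables and figures used Python 3.11.15, pandas 2.3.3 and matplotlib 3.10.9. A gene of a list was represented by its brightest probe set. Named were all members, from each list the called genes or, with none called, the 2 with the largest differences of 1 sign, the 8 genes most correlated with *prt* and its flanking genes. Members and lists were chosen with earlier results of these data known. With 3 arrays a group, the number of arrays limits precision. Alternatives changed the normalization, filter, weights, moderation, block and arrays used.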

Additional observations from a re-analysis of the deposited data

How the results depend on the processing

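The difference of *prt* lay between 3.55 and 3.79 against *bam*-Gal4 and between 3.44 and 3.77 against undriven testes over 19 alternatives each, and leaving out 1 array at a time gave 3.55 to 3.76 and 3.44 to 3.77. By construction, the filters, the robust moderation with trend, the replicate block and the use of only the compared arrays cannot change this difference. Neither can the mean over the 1 probe set of *prt*, nor leaving out an array of the control not compared. No relative of *prt* was called under any alternative in which its probe sets were tested, and their differences lay between −0.30 and 0.36. Filters at a mean of 5 or 6 left none of the relatives' probe sets, so these filters gave no value for them. No member was called between the controls under any alternative. The count of pathway genes called against both controls was 2, and it was 1 after a renewed quantile normalization, 1 to 3 with 1 array left out and 21 with no fold limit. It was 1 without the first *bam*-Gal4 array and 1 without the third knockdown array. The count of flanking genes was 0 and became 1, *CG10232*, with no fold limit. With a replicate block, *prt* differed by 3.66 and 3.63, which a block cannot change, since every genotype holds each replicate number. With that block, 2 pathway genes and 0 flanking genes were called, and no call of a member changed. The replicate numbers give no pairing, since same-numbered arrays of 2 genotypes correlated in their deviations between −0.58 and 0.33. An alternative without 3 arrays at once, 1 of each genotype, was chosen after seeing the data. Of 66 differences of 33 probe sets (the relatives, the flanking genes and named list genes), 11, none of them called, changed sign under some alternative, and other named genes were not followed through the alternatives. The signal of the relatives is dim, and the number of arrays limits the precision.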

Other observations

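*prt* shares its chromosome arm with other genes that were called higher against both controls. Of the 69 genes called higher, *prt* among them, 23 lie on arm 3R, or 33.3%, beside 25% of the 11942 measured genes. On arm 3L lie 16 of them, or 23.2%, beside 19.7% of the measured genes. These shares are a description, and the part of the *Sb*-marked chromosome 3 of the controls in them was not tested.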
